A study of Homo sapiens with 18 samples.

Results

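Post-hypoxic cells of SCC154 were compared with post-hypoxic cells of FaDu. The 9 libraries were chosen by title: 4 labelled SCC154-hfm, HPV-positive and post-hypoxic (replicates 2 to 5), and 5 labelled FADU-hfm, HPV-negative and post-hypoxic (replicates 1 to 5), out of 18 in the series. Both are established human lines of head and neck squamous cell carcinoma, and both carried a hypoxia-fate-mapping reporter, which changes a cell's fluorescence from DsRed to GFP once it has met low oxygen. The cells had grown as spheroids on low-attachment plates. They were separated with trypsin, sorted for GFP, and then kept and passaged under normoxic conditions before polyadenylated RNA was sequenced from its 3′ end. All 9 libraries therefore share the reporter, the spheroid stage, the GFP sort and the later normoxic culture, and differ in line and HPV status. Each HPV status is represented by 1 line, so the line and the virus cannot be told apart. The other 9 libraries, sorted for DsRed (non-hypoxic), were 4 of FaDu and 5 of SCC154, and were used for the shared estimate of spread and for the last comparison.

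High-risk papillomaviruses make a pair of oncoproteins, E6 and E7. E6 directs cellular proteins to degradation, and E7 binds and inactivates the retinoblastoma (RB) family, which releases E2F transcription factors and lets the inhibitor p16 accumulate. HPV-negative squamous carcinomas of this region more often lose p16 and gain the chromosome band 11q13, which holds the cyclin D1 gene. Viral transcripts were not analysed here.

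The deposited values were whole-number counts of 3′ tags per gene, and library totals of the 9 libraries lay between 1654719 and 2503573. Levels are given as CPM, the count scaled to a common library size with TMM factors, as the mean ± SD over 4 SCC154 and 5 FaDu libraries. Single libraries are listed in the order of replicates 2 to 5 (SCC154) and 1 to 5 (FaDu). A tag is counted once per transcript end, so CPM does not depend on transcript length. Log2 expression correlated at 0.952 to 0.981 between SCC154 libraries, 0.970 to 0.986 between FaDu libraries and 0.703 to 0.739 between the lines. The labels do not state how the replicates arose, by culture, by sort or by library, and the p-values speak only for the spread among these libraries, part of which can be technical. These are bulk samples, in which fewer cells of a type and less RNA per cell cannot be told apart.

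The squamous and epithelial label was carried by the data: all 12 marker genes of that kind were tested, and their summed level was 3364 to 3572 CPM in SCC154 and 3683 to 4299 CPM in FaDu. Markers of fibroblasts and immune cells were near 0. The 10 fibroblast markers summed to at most 5.06 CPM and the 11 immune markers to at most 3.58 CPM in any library, with COL3A1, LUM, PDGFRB, PTPRC, CD3E and LYZ at 0 counts throughout. The 9 endothelial markers summed to 2.27 to 4.91 CPM in SCC154 and 8.72 to 19.8 CPM in FaDu. Most of the latter was ENG, a coreceptor of the TGF-beta family, at 13.96 ± 3.69 CPM in FaDu and 1 count in all SCC154 libraries. VWF, KDR, CLDN5 and TIE1 were at 0 counts in both lines. The 12 neuronal and neuroendocrine markers summed to 32.2 to 50.02 CPM in SCC154 and 31.1 to 57.2 CPM in FaDu, with CHGA, INSM1 and NEUROD1 at 0 counts in both lines. Of these markers SYT1, a sensor of vesicle release, had 19.8 ± 5.25 CPM in FaDu and 2 counts in all SCC154 libraries. The share of counts from mitochondrially encoded mRNA was 1.27 ± 0.177% in SCC154 and 1.05 ± 0.146% in FaDu, and the difference did not pass an exact two-sided permutation test (p = 0.111, adjusted p = 0.389 over 7 library measures; the smallest p this design allows is 0.0159).

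Of 12291 genes tested, 8569 (69.7%) differed between the lines at an adjusted p of 0.05 by edgeR's quasi-likelihood test, 4283 higher and 4286 lower in SCC154. Because a call against 0 covers most genes here, a gene is called higher or lower below only where edgeR's test against a 2-fold change (glmTreat) also passed, unless the text says otherwise. That test called 3274 genes (26.6%), 1884 higher (15.3%) and 1390 lower (11.3%) in SCC154. The libraries of the lines did not overlap for 7041 genes (57.3%), so that non-overlap alone marks no gene out. The median log2 difference over all tested genes was 0.01. A positive difference means a higher level in SCC154. Fold differences come from the edgeR fit, and every gene given below with values of both lines passed the 2-fold test in the direction of its values unless stated otherwise. Lists are read against these background shares. Genes that a list names because they are expressed in 1 line had to pass the filter on low counts through that line.

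**Figure D1:**
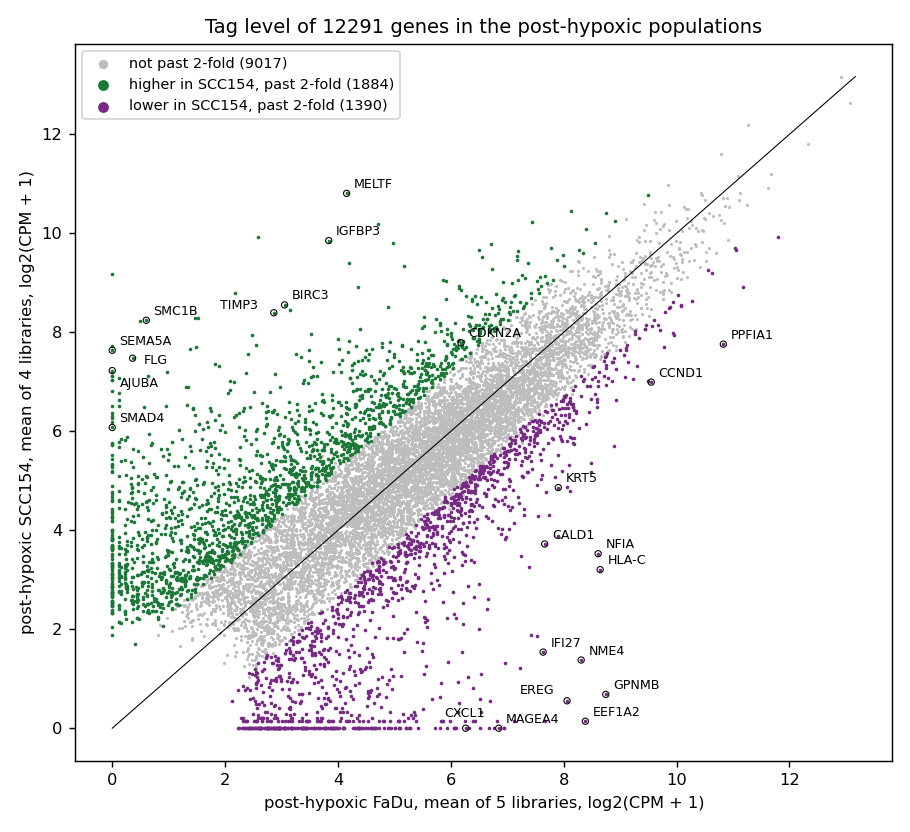
Mean tag level of each of the 12291 tested genes in post-hypoxic FaDu (x axis, 5 libraries) and SCC154 (y axis, 4 libraries), both as log2(CPM + 1); the line marks equal levels. The 1884 genes past 2-fold in SCC154 are green, the 1390 past 2-fold in FaDu purple, and genes along either axis had no or almost no counts in the other line.

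Several genes were abundant in one line and listed at 0 counts in the other. In post-hypoxic FaDu 111 tested genes had no count, of which 18 averaged at least 50 CPM in SCC154. In post-hypoxic SCC154 189 tested genes had no count, of which 15 averaged at least 50 CPM in FaDu. For these a fold is a lower bound, computed against a floor of 3 counts over the group, which is 0.275 CPM in FaDu and 0.342 CPM in SCC154. The floor covers counting error only.

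Among the largest differences in favour of SCC154 was SEMA5A, a transmembrane semaphorin of axon guidance (chromosome 5, 9035026 to 9546075). It stood at 198, 269.7, 117 and 207 CPM in SCC154 and at 0 counts in all 5 FaDu libraries, at least 719.6-fold higher. AJUBA, a LIM-domain protein that restrains the Hippo kinases, had 149 ± 42.9 CPM in SCC154 (193, 110.4, 178 and 113 CPM by library) against 0 in FaDu, at least 540.5-fold higher. The imprinted gene SNRPN, a component of the splicing machinery, had 138 ± 19.6 CPM against 0, and TMX3, a thioredoxin of the endoplasmic reticulum, 130.2 ± 13.8 CPM against 0. HSD17B2, which inactivates estradiol and testosterone, had 90.2 ± 12.04 CPM, the reductase gene CYB5R2 71.6 ± 24.2 CPM and the non-coding RNA SNHG18 78.2 ± 16.7 CPM in SCC154, each at 0 counts in FaDu. None of these 7 genes overlapped between the lines.

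In the other direction, EEF1A2 encodes the form of translation elongation factor 1 alpha that is normally restricted to muscle and nerve. FaDu libraries held 292, 328, 344, 300.5 and 399 CPM, while SCC154 libraries held 1 count in all, a ratio of 2925-fold (95% counting interval 525 to 115578). LCP1, an actin-bundling protein known from leukocytes, was at 203 ± 10.7 CPM in FaDu against 1 count in SCC154, a ratio of 1770.3-fold (95% counting interval 317 to 69956). PRKAA2, a catalytic subunit of the energy sensor AMPK, had 125.9, 124, 135, 113 and 109.5 CPM in FaDu and 0 in SCC154, at least 354-fold lower in SCC154. Its sister gene PRKAA1 was instead higher in SCC154, at 99.5 ± 7.42 against 37.7 ± 4.34 CPM. MGMT, the enzyme that removes alkyl groups from guanine in DNA, had 78.9 ± 17.7 CPM in FaDu and 0 counts in every SCC154 library, at least 230.5-fold lower. Also at 0 counts in SCC154 were TMEM161B (121 ± 21.8 CPM in FaDu), the GTPase-activating gene ARHGAP6 (107 ± 14.5 CPM), the calcium-binding membrane protein MCTP1 (67.5 ± 13.8 CPM), the neuronal nitric oxide synthase NOS1 (66.2 ± 10.6 CPM) and the long non-coding RNA AFAP1-AS1 (90.1 ± 19.7 CPM). GPNMB, a glycoprotein of lysosomes and melanosomes, was at 428 ± 47.9 CPM in FaDu and 0.606 ± 0.515 CPM in SCC154, and NME4, a mitochondrial nucleoside diphosphate kinase, at 316 ± 16.3 and 1.598 ± 1.06 CPM.

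Some inhibitors of cyclin-dependent kinases were higher in SCC154, and cyclin D1 was lower. Of 28 tested members of the list of p16, RB family and cyclin-dependent kinase genes, 6 were higher and 2 lower past 2-fold, with a median log2 difference of 0.17 against 0.01 over all genes. Their share past 2-fold, 28.6%, lay near the 26.6% of all genes. CDKN2A, which encodes p16 and ARF (chromosome 9, 21967753 to 21995301), had 199.9, 246, 216 and 218 CPM in SCC154 and 61.6, 77.3, 71.7, 67.3 and 79.6 CPM in FaDu. Every SCC154 library lay above every FaDu library, and the mean was 3.07-fold higher (log2 difference 1.62, SE 0.09, adjusted p = 4.57e-13 by edgeR). CDKN2A was thus present in both lines. Its p16 and ARF transcripts share their last exons, so a 3′ tag does not separate them. Its neighbour CDKN2B (p15) was 3.34-fold higher, at 41.3 ± 6.82 against 12.3 ± 5.22 CPM, and CDKN2D (p19) 3.48-fold higher, at 119.6 ± 42.9 against 34.4 ± 7.14 CPM. CDKN1A (p21), an inhibitor induced by cellular stress, had 38.1, 16.1, 33.2 and 25.4 CPM in SCC154 and 3.27, 5.06, 4.09, 4.13 and 3.08 CPM in FaDu, 7.18-fold higher (log2 difference 2.84, SE 0.26, adjusted p = 1.02e-09 by edgeR). The other inhibitors of the list, CDKN1B, CDKN1C and CDKN2C, did not pass the 2-fold test (log2 differences -0.37, 0.44 and 0.08).

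The cyclin D1 gene CCND1, whose product starts the inactivation of RB, went the other way. It stood at 114, 58.5, 187 and 146 CPM in SCC154 and 952, 654, 777, 755 and 604 CPM in FaDu, 5.87-fold lower in SCC154 (log2 difference -2.55, SE 0.22, adjusted p = 5.34e-10 by edgeR). E2F3 was also lower (57.7 ± 12.01 against 160.4 ± 14.9 CPM), whereas E2F2 (17.4 ± 3.99 against 4.91 ± 1.11 CPM) and the cyclin E2 gene CCNE2 (52.2 ± 13.6 against 16.7 ± 6.85 CPM) were higher. RB1 itself passed the test against 0 but not the 2-fold test, at 82.4 ± 16.8 against 57.8 ± 4.32 CPM (log2 difference 0.51). MDM2, a ubiquitin ligase, did not pass either test: its level was 140.4 ± 17.01 CPM in SCC154 and 129 ± 7.302 CPM in FaDu (log2 difference 0.13, SE 0.11, adjusted p = 0.282 by edgeR), and the libraries overlapped.

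Proliferation genes differed little by comparison. Of 41 tested genes of G1/S and DNA replication, 0 were higher and 2 lower past 2-fold. The 2 were TYMS, the thymidylate synthase (28.6 ± 10.8 against 130.3 ± 13.8 CPM), and the origin-recognition gene ORC1 (9.79 ± 2.94 against 25.97 ± 3.67 CPM). The call of ORC1 did not hold under many alternatives, DESeq2 and limma voom among them. Among all 41, 19 were lower and 6 higher by the test against 0, with a median of -0.33. Of 35 G2/M genes, 1 was higher past 2-fold and 0 lower: CDC25B, the phosphatase that helps to start mitosis, at 439.6 ± 72.01 against 171 ± 18.98 CPM; by DESeq2 it was not past 2-fold. Their median was 0.06.

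Receptors of TRAIL were among the genes of cell death. TRAIL is a ligand that kills cells through the death receptors TNFRSF10A and TNFRSF10B, while the decoy TNFRSF10D binds it without a full death domain. TNFRSF10A was at 70.4, 70.4, 83.6 and 104 CPM in SCC154 and 0 counts in post-hypoxic FaDu, at least 298-fold higher, and TNFRSF10D at 108, 135, 86.5 and 195 CPM against 0, at least 476-fold higher. TNFRSF10B, the second death receptor, was present in both lines, at 97.8 ± 16.3 against 58.2 ± 3.08 CPM, and did not pass the 2-fold test. The adaptor FADD, which links these receptors to caspase 8, was lower in SCC154 (83.9 ± 9.41 against 295 ± 22.1 CPM), and so was the pore-forming gene BAK1 (7.24 ± 0.931 against 24.7 ± 6.45 CPM). The ligand gene TNFSF10 had 4.096, 13.7, 1.23 and 3.63 CPM in SCC154 and 11.4, 25.8, 9.99, 16.5 and 23.8 CPM in FaDu, which overlap, and its call past 2-fold did not hold under most alternatives. In the list of death receptors and apoptosis regulators 9 of 29 tested genes were higher and 3 lower past 2-fold.

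**Figure D2:**
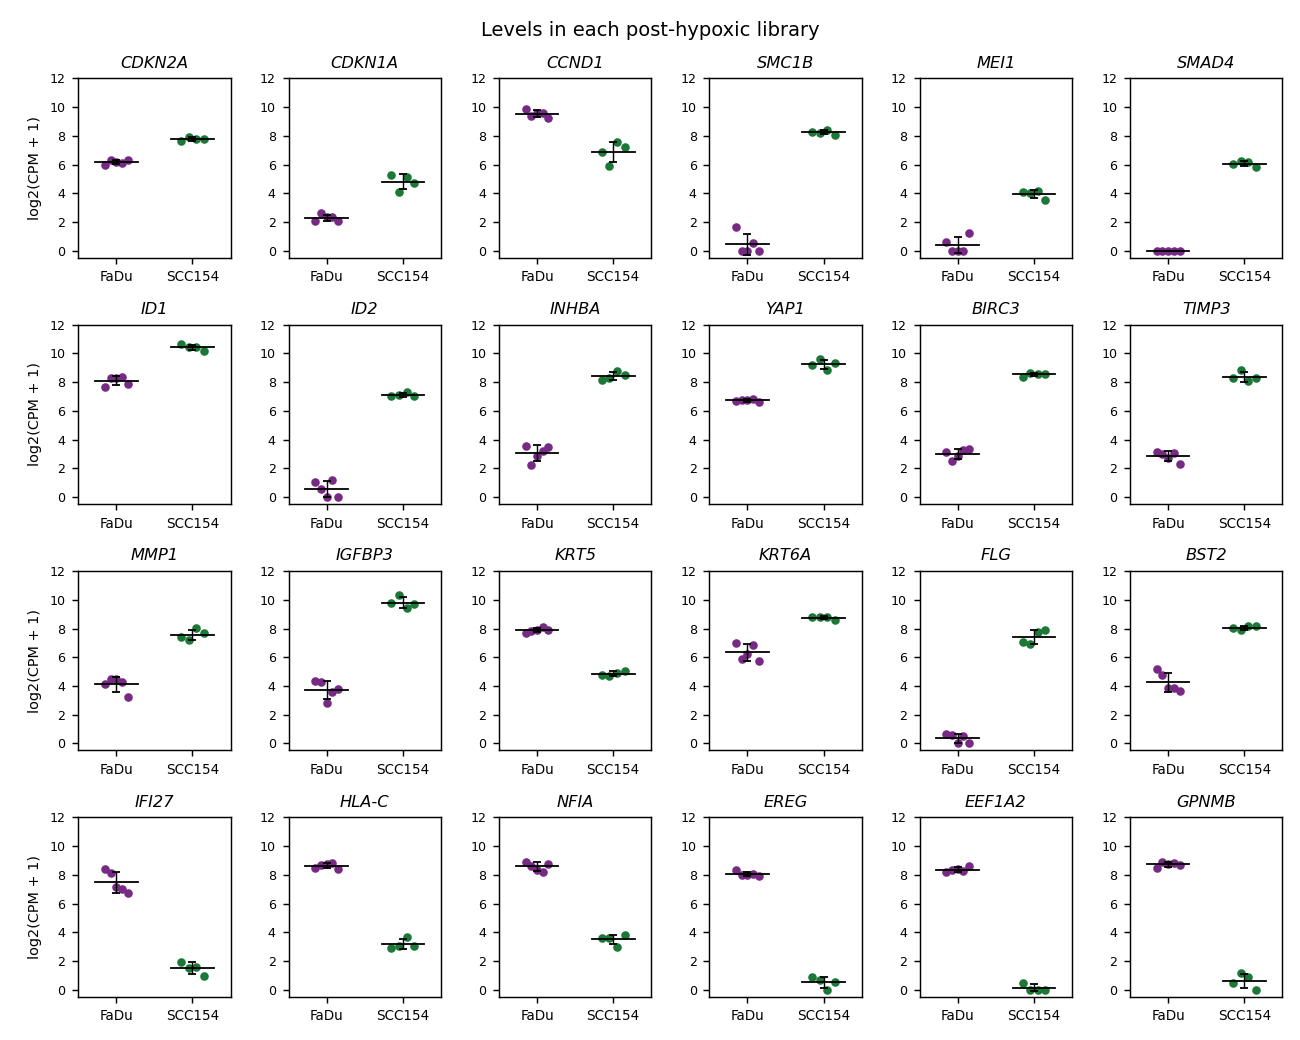
Level of 24 genes in each post-hypoxic library as log2(CPM + 1), FaDu (5 purple points) and SCC154 (4 green points) with the mean and SD as bars. In each of the 24 panels the points of the lines do not overlap; 57.3% of all tested genes share that property.

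Germline and meiosis genes, which are normally silent outside the germ line, were detected in SCC154. Of 46 listed genes 11 had enough counts to be tested, and 7 of these were higher and 2 lower past 2-fold. Because a gene expressed in one line alone passes a filter on low counts through that line, this count describes the tested members and not the list. SMC1B, a meiosis-specific subunit of the cohesin ring (chromosome 22, 45344063 to 45413619), had 303, 297, 338 and 269 CPM in SCC154 and 2.18, 0, 0, 0.413 and 0 CPM in FaDu. The level in SCC154 was 583-fold higher (log2 difference 9.19, SE 0.30, adjusted p = 2.29e-17 by edgeR); without FaDu replicate 1, which held most of the FaDu counts, the log2 difference was 10.81. DMC1, the recombinase of meiotic strand exchange, had 38.8 ± 9.37 against 6.05 ± 1.81 CPM, and MEI1, needed for meiotic double-strand breaks, 14.5 ± 2.84 against 0.373 ± 0.5795 CPM. NANOS1, a translational repressor of germ cells, had 138 ± 10.3 against 10.8 ± 2.71 CPM, and the testis pseudogene TCAM1P 11.5 ± 4.18 CPM against 0 counts. SYCP2, an axial element of the synaptonemal complex, was low in both lines, at 2.83 ± 1.29 CPM in SCC154 and 5.73 ± 1.78 CPM in FaDu (adjusted p = 0.0328 by edgeR against 0, and 0.117 without SCC154 replicate 4) and did not pass the 2-fold test. STAG3, another meiotic cohesin gene, had 1 count in all 9 libraries and was not tested.

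FaDu held other genes of this kind. TDRD5, a tudor-domain gene of spermatogenesis, was at 10.9 ± 1.71 CPM in FaDu and 0 counts in SCC154. Of 34 cancer-testis antigen genes 7 were tested, 4 of them lower in SCC154 and 1 higher past 2-fold. MAGEA4, an X-linked antigen of testis and tumours, had 96.5, 113, 138, 136 and 88.4 CPM in FaDu and 0 counts in SCC154, at least 333-fold lower. PRAME, an antigen that also acts as a repressor of retinoic acid receptors, had 36.1 ± 3.16 CPM against 0, at least 105-fold lower. MAGED1, a ubiquitous member of the family, was higher in SCC154 (92.3 ± 13.3 against 8.63 ± 2.62 CPM). Reads of MAGEA genes can match several copies, so the level of MAGEA4 is uncertain.

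Most genes of chromosome band 11q13, often amplified in HPV-negative head and neck cancer, were lower in SCC154. Of 16 tested genes of the list 10 were lower and 1 higher past 2-fold, with a median of -1.97. PPFIA1, a liprin of focal adhesions, had 192, 247, 167 and 257 CPM in SCC154 and 2061, 1897, 1767, 1678 and 1679.7 CPM in FaDu, 8.43-fold lower. CTTN, the actin regulator cortactin, followed with 480.1 ± 10.5 against 2305 ± 111 CPM. SHANK2, a scaffold protein, had 8.897 ± 2.96 against 72.8 ± 16.7 CPM, MYEOV 2.52 ± 1.23 against 28.2 ± 6.36 CPM, and CPT1A, which brings fatty acids into mitochondria, 97.8 ± 18.4 against 486 ± 16.8 CPM. CCND1 and FADD, described above, belong to the same stretch. ANO1, a calcium-activated chloride channel between them, was the exception: it had 163, 118, 173 and 146 CPM in SCC154 and 16.3, 15.2, 16.8, 25.2 and 16.7 CPM in FaDu, 8.27-fold higher.

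Genes of 11q22 were higher in SCC154. All 13 tested genes of the list were higher past 2-fold, with a median of 2.83. They extended into the longest run of neighbouring tested genes past 2-fold in one direction, 19 genes from MAML2 to CASP4 (chromosome 11, 95976598 to 104969436). YAP1, the transcriptional coactivator at the end of the Hippo pathway, had 589.8, 775, 461 and 652 CPM in SCC154 and 102, 107, 105, 114 and 97.7 CPM in FaDu, 5.88-fold higher. The inhibitors of apoptosis beside it differed more: BIRC2 (cIAP1) had 525 ± 19.7 against 59.4 ± 5.77 CPM and BIRC3 (cIAP2) 375 ± 30.2 against 7.299 ± 1.86 CPM, 50.7-fold higher. CFAP300, a gene of ciliary assembly, had 50.01 ± 7.14 CPM against 1 count in FaDu, a ratio of 549-fold (95% counting interval 98.03 to 21734). CEP126 had 181 ± 40.3 against 9.15 ± 2.07 CPM, and DYNC2H1, the motor of transport inside cilia, 828 ± 143 against 218 ± 23.7 CPM. The metalloproteases of this stretch are taken up below.

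On 18q21 several transcripts were at or near 0 in FaDu. SMAD4, the shared partner of all receptor-activated SMAD proteins (chromosome 18, 51028394 to 51085045), had 65.9, 73.4, 72.2 and 54.5 CPM in SCC154 and 0 counts in all 5 post-hypoxic FaDu libraries, at least 242-fold higher. Its neighbour MEX3C, an RNA-binding ubiquitin ligase (chromosome 18, 51174550 to 51218304), had 57.3, 39.4, 59.04 and 53.1 CPM against 0, at least 189.8-fold higher. ME2, the mitochondrial malic enzyme on the other side of SMAD4, had 23.4 ± 4.92 CPM against 1 count, a ratio of 251-fold (95% counting interval 44.6 to 9982). SMAD4 and MEX3C also had 0 counts in the 4 non-hypoxic FaDu libraries. Of the 8 tested genes between MBD1 and POLI, 5 were higher past 2-fold and 0 lower, while MBD1, CXXC1 and MBD2 did not pass the 2-fold test.

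**Figure D3:**
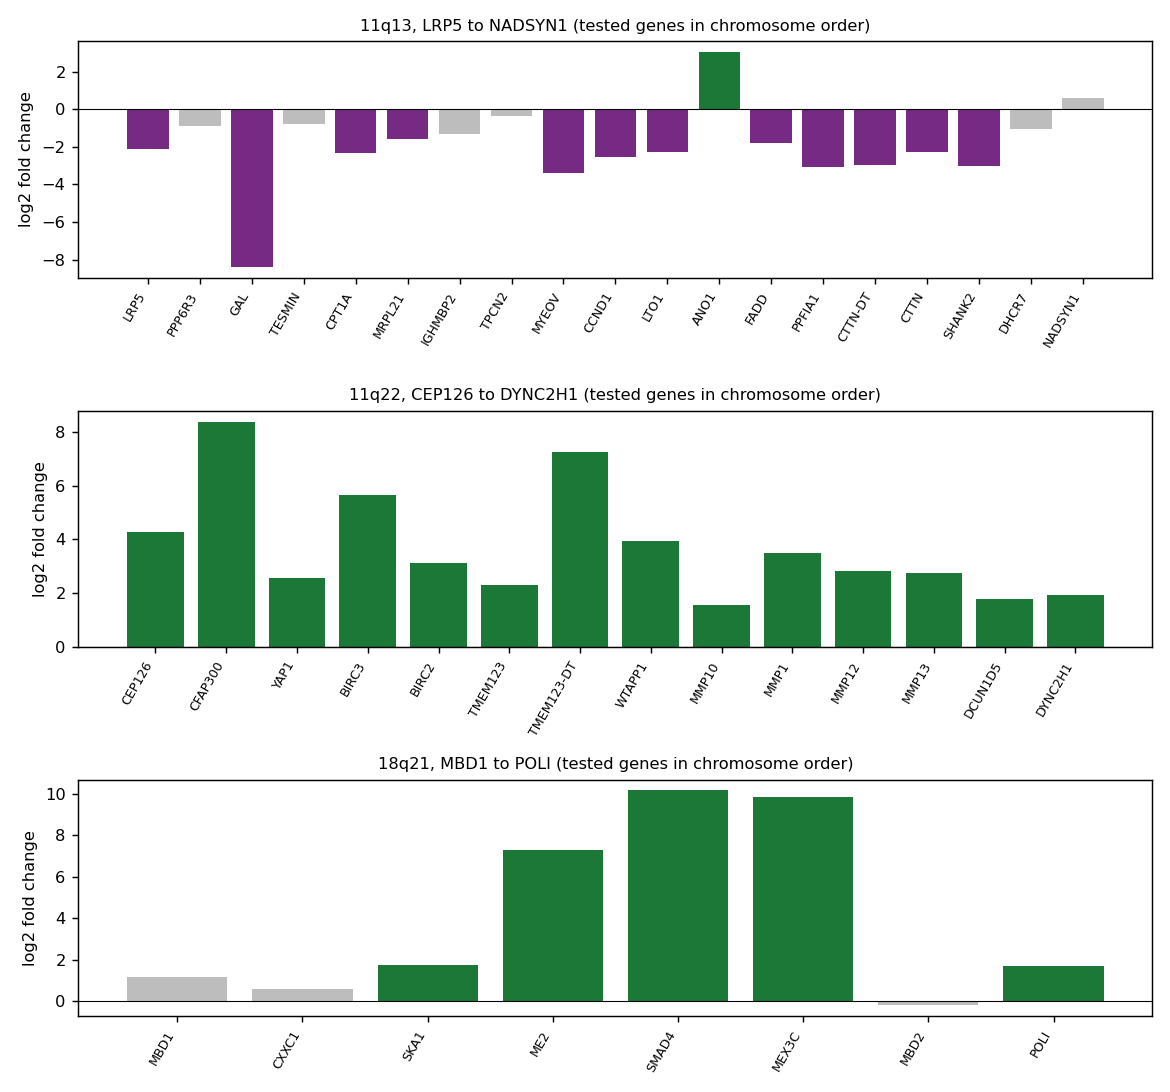
Log2 difference (SCC154 minus FaDu) of the tested genes along 3 chromosome stretches, in gene order; green and purple bars passed the 2-fold test, grey bars did not. On 11q13 12 of 19 genes are lower and ANO1 is higher, on 11q22 all 14 are higher, and on 18q21 ME2, SMAD4 and MEX3C stand out. The 11q22 stretch was drawn from CEP126 to DYNC2H1, inside the run from MAML2 to CASP4, so its full count follows from its bounds. Bars of genes with no FaDu counts show fitted values, which are not bounds.

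Runs of neighbouring genes were also found at zinc-finger clusters of chromosome 19. Most genes of these runs are zinc-finger genes; many such genes there encode KRAB zinc-finger proteins, which silence transposable elements. A run of 15 tested genes from PLAUR to ZNF180 (43646095 to 44500524) was higher in SCC154 with a median log2 difference of 2.69. A run of 11 from ZNF304 to ZNF551 (57351307 to 57717301) was lower with a median of -6.98, and one of 7 from ZNF724 to LINC02987 (23221599 to 27918863) was lower with a median of -6.83. The run of 7 from ZNF569 to ZFP30 (37411155 to 37692337) was higher with a median of 4.13. Reads of these genes can match close relatives.

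Many genes of the TGF-beta superfamily were higher in SCC154, and a few were lower. TGF-beta and activin signal through SMAD2 and SMAD3, bone morphogenetic proteins (BMP) through SMAD1, SMAD5 and SMAD9, and both need SMAD4. Of 33 tested genes 16 were higher and 4 lower past 2-fold, with a median of 1.09. Of the ligands, INHBA, a subunit of activin, had 285, 308, 430.1 and 368 CPM in SCC154 and 10.9, 3.68, 6.36, 8.25 and 10.1 CPM in FaDu, 44.2-fold higher (log2 difference 5.47, SE 0.23, adjusted p = 1.38e-15 by edgeR). INHBB, the other activin subunit, had 53.7 ± 8.004 CPM against 1 count, a ratio of 581-fold (95% counting interval 104 to 23013). BMP4 had 48.9 ± 11.2 against 0.957 ± 0.615 CPM and TGFB2 12.6 ± 5.31 against 0.712 ± 0.512 CPM. BMP7 was the opposite: 28.3, 27.1, 20.4, 21.05 and 23.3 CPM in FaDu and 0 counts in SCC154, at least 70.3-fold lower.

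The receptors were divided. TGFBR1 was higher (51.1 ± 7.77 against 19.2 ± 2.39 CPM), as was the coreceptor TGFBR3 (34.6 ± 8.43 against 8.53 ± 3.13 CPM). TGFBR2, the receptor that binds TGF-beta first, had 7.01 ± 1.77 CPM in FaDu and 0 counts in SCC154, at least 20.5-fold lower. FST, the secreted trap of activin, was lower in SCC154 (66.9 ± 16.6 against 174 ± 40.6 CPM); its call did not hold under every alternative.

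ID1, ID2, ID3 and ID4, known targets of BMP signalling, were all higher in SCC154. They encode helix-loop-helix proteins that block differentiation factors, and BMP induces them through SMAD1, SMAD5 and SMAD4. ID1 had 1593, 1394, 1423 and 1179.8 CPM in SCC154 and 205, 319, 308, 329 and 229 CPM in FaDu, 5.02-fold higher (log2 difference 2.33, SE 0.15, adjusted p = 1.99e-12 by edgeR). ID2 had 128, 134, 155 and 132 CPM against 1.09, 0.4602, 0, 1.24 and 0 CPM, 226-fold higher. ID3 was at 109 ± 48.8 against 4.71 ± 1.203 CPM, and SMAD6, an inhibitor in the same feedback, at 17.5 ± 1.12 against 0.644 ± 0.405 CPM. PMEPA1, a feedback inhibitor that TGF-beta induces, was instead lower in SCC154 (16.8 ± 7.25 against 138 ± 23.4 CPM, 8.42-fold).

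Genes of the list for YAP and its TEAD partners were mostly higher too. Besides targets the list holds YAP1 itself, described above with 11q22, and AJUBA, which restrains the Hippo kinases. Of 20 tested genes 11 were higher and 2 lower past 2-fold, with a median of 1.37. ANKRD1, a nuclear ankyrin protein that YAP is known to induce, had 79.5, 44.2, 94.7 and 86.2 CPM in SCC154 and 0 counts in FaDu, at least 277-fold higher. CCN2, a matricellular growth factor, had 67.99, 75.8, 54.1 and 50.8 CPM against 1.09, 5.98, 1.82, 2.48 and 3.52 CPM, 20.1-fold higher. VGLL3, a TEAD cofactor, had 79.1 ± 7.74 against 1.77 ± 1.23 CPM, and the junction gene AMOTL2 189 ± 36.8 against 43.7 ± 4.72 CPM. WWTR1, the gene of the YAP relative TAZ, was lower (23.8 ± 3.498 against 80.3 ± 6.51 CPM), and so was FJX1 (3.07 ± 1.04 against 25.4 ± 1.38 CPM). The libraries of the lines did not overlap for any of these 6 genes.

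The bases before the start of ANKRD1 and CCN2 are shown because both are standard reporters of YAP and TEAD. They are the 250 bases upstream of the RefSeq gene start on GRCh38.p14, read 5′ to 3′ on the gene's strand, and capitals mark GGAATG, the core that TEAD proteins bind, on either strand. The genes printed here and below were chosen after their values and motifs were seen.
CCN2 (chr6:131951373-131951622, minus strand): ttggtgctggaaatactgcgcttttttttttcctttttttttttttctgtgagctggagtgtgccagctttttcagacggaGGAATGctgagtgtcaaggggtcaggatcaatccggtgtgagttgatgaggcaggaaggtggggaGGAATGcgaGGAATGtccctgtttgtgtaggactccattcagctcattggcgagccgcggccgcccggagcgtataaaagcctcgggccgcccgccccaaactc
ANKRD1 (chr10:90921088-90921337, minus strand): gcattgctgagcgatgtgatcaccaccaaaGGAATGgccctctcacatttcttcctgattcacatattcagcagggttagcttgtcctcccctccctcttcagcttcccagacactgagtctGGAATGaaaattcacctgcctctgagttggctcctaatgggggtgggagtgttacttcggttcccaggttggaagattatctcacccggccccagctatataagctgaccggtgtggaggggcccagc
The CCN2 stretch holds 3 matches and the ANKRD1 stretch 2. Of the 35116 RefSeq windows of this length, 11.9% hold at least 1 match. This is a share of single windows, whereas a list member counts below if any of its windows holds a match. Among tested YAP and TEAD list members with a window, 8 of 16 hold one: 7 of the 9 higher past 2-fold (PTPN14, AMOTL2, CCN2, ANKRD1, YAP1, AJUBA and AXL) and 0 of the 2 lower. A match describes the letters of the window and is not evidence of binding.

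Extracellular proteases and their inhibitors remodel the matrix around carcinoma cells. In the list of matrix proteases and inhibitors, every called gene was higher in SCC154. The kallikreins KLK5 and KLK6, proteases of another list taken up below, were lower. Of 28 tested genes 26 were higher and 0 lower by the test against 0, and 16 were higher and 0 lower past 2-fold, with a median of 1.51. MMP1, the interstitial collagenase, had 169.97, 146, 256 and 203 CPM in SCC154 and 16.3, 21.2, 20.9, 18.2 and 8.36 CPM in FaDu, 11.4-fold higher. MMP13 had 40.4 ± 24.2 against 5.86 ± 2.13 CPM and MMP12 19.6 ± 6.97 against 2.604 ± 0.997 CPM. These 3 lie together in the 11q22 stretch, whereas MMP28 (41.8 ± 9.83 against 0.982 ± 0.534 CPM) is on chromosome 17. ADAMTS1, a secreted protease that cuts proteoglycans, had 31.9 ± 6.98 against 0.445 ± 0.509 CPM.

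The list's inhibitors of metalloproteases were higher as well. TIMP3, the matrix-bound inhibitor of metalloproteases, had 308, 454, 267 and 312 CPM in SCC154 and 7.63, 6.902, 5.45, 7.43 and 3.96 CPM in FaDu, 53.1-fold higher (log2 difference 5.73, SE 0.21, adjusted p = 1.06e-16 by edgeR), and TIMP2 671 ± 148 against 17.3 ± 2.05 CPM. PLAUR, the receptor of urokinase, had 203 ± 25.8 against 23.4 ± 3.02 CPM, and the lysosomal protease CTSB 462 ± 118 against 71.7 ± 7.34 CPM. PLAU, urokinase itself, did not pass either test, at 62.6 ± 9.44 against 75.9 ± 16.99 CPM (adjusted p = 0.143 by edgeR).

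Genes linked to epithelial-mesenchymal transition, in which epithelial cells take on motile features, were split. Of 28 tested 9 were higher and 6 lower past 2-fold, with a median of 0.15. Among the higher genes were those of 3 matrix proteins. TGFBI had 468, 482, 574 and 396 CPM in SCC154 and 19.6, 21.2, 15.4, 22.3 and 19.4 CPM in FaDu (24.4-fold higher), THBS1 248 ± 17.4 against 10.5 ± 4.56 CPM, and fibronectin (FN1) 87.1 ± 7.15 against 4.01 ± 3.21 CPM. Among the lower genes were the transcription factors TWIST1 and TWIST2 and a cadherin. TWIST1 had 13.8 ± 2.87 CPM in FaDu and 0 counts in SCC154, at least 40.2-fold lower, and TWIST2 26.2 ± 4.72 CPM in FaDu and 0.3403 ± 0.681 CPM in SCC154. N-cadherin (CDH2) had 9.97 ± 3.35 CPM against 1 count, a ratio of 87.6-fold (95% counting interval 15.4 to 3489). E-cadherin (CDH1) was 2.41-fold higher in SCC154, at 212 ± 13.1 against 87.8 ± 10.002 CPM. VIM, the gene of the intermediate filament vimentin, was listed at 0 counts in all 9 libraries, as was EEF1G, a translation elongation factor gene that every cell uses. Whether the counting lost these genes was not tested, so a 0 in both lines is not read as absence.

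Keratins differed in both directions. KRT5 and KRT14 form the filament pair of basal cells, and KRT6A appears in activated squamous epithelium. KRT5 had 26.6, 24.5, 29.5 and 31.8 CPM in SCC154 and 203, 229, 242, 278 and 239.8 CPM in FaDu, 8.44-fold lower (log2 difference -3.08, SE 0.13, adjusted p = 1.3e-15 by edgeR), and KRT14 5.23 ± 0.904 against 34.2 ± 4.701 CPM, 6.596-fold lower. KRT6A had 436, 448, 439 and 383 CPM against 125, 57.98, 74.9, 117 and 51.03 CPM, 5.02-fold higher (log2 difference 2.33, SE 0.23, adjusted p = 4.02e-09 by edgeR). KRT13, the keratin of non-cornifying mucosa, was higher (68.1 ± 28.6 against 23.96 ± 6.49 CPM, a call that did not hold under every alternative), and KRT80 as well (115 ± 5.4997 against 28.4 ± 7.34 CPM). The simple keratin KRT18 was at 449 ± 78.8 against 559.97 ± 58.7 CPM, with overlapping libraries and no call past 2-fold (adjusted p = 0.0176 by edgeR against 0, and 0.0739 without SCC154 replicate 3). The hair keratins KRT81 (6.75 ± 1.07 against 0.43996 ± 0.438 CPM) and KRT86 (7.93 ± 3.14 against 0.886 ± 0.549 CPM) were low in SCC154 and near 0 in FaDu; they lie over each other on opposite strands and share close sequence, so their levels are uncertain.

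Late differentiation genes of squamous epithelium went both ways. Of 53 listed genes 22 were tested, 8 of them higher and 4 lower past 2-fold. Filaggrin (FLG), a protein of the cornified layer, had 132, 122, 221 and 233 CPM in SCC154 and 0.545, 0.4602, 0, 0.413 and 0 CPM in FaDu. Sciellin (SCEL), a precursor of the cornified envelope, had 202 ± 51.5 against 1.58 ± 1.02 CPM, 125-fold higher, and the protease inhibitor CSTA 226 ± 46.1 against 41.5 ± 6.98 CPM. The kallikreins were split: KLK10 was higher (219 ± 29.6 against 26.6 ± 4.84 CPM), while KLK5 (0.512 ± 0.615 against 13.1 ± 3.43 CPM) and KLK6 (2.35 ± 0.615 against 41.4 ± 13.4 CPM) were lower.

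Transcription factors of the squamous lineage were also on both sides. Of 25 tested 7 were higher and 4 lower past 2-fold. EHF, an ETS factor of epithelial differentiation, had 432, 604, 253 and 473 CPM in SCC154 and 7.08, 5.52, 2.72, 0.825 and 1.32 CPM in FaDu, 129.99-fold higher. The transcription factor TP73 had 22.1 ± 3.39 against 0.447 ± 0.539 CPM, SOX2 12.6 ± 1.099 against 2.71 ± 1.203 CPM and the forkhead factor FOXA1 36.9 ± 6.39 against 6.19 ± 1.51 CPM. NFIA, a factor of the nuclear factor I family, had 11.1, 11.3, 6.97 and 12.7 CPM in SCC154 and 486, 393, 329.7, 299 and 439.9 CPM in FaDu, 37.1-fold lower. FOXA2 had 14.9 ± 4.86 CPM in FaDu and 0 counts in SCC154, and SOX9 92.7 ± 22.3 against 21.1 ± 10.7 CPM. TP63, the master factor of squamous cells, was at 43.9 ± 9.097 CPM in SCC154 and 87.3 ± 14.5 CPM in FaDu and did not pass the 2-fold test.

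Of 19 tested genes of desmosomes and hemidesmosomes 4 were higher and 2 lower past 2-fold (31.6%, against 26.6% of all genes). Hemidesmosomes tie cells to the basement membrane through integrin alpha6 beta4 and laminin-332. ITGA6 had 618, 522, 489 and 617 CPM in SCC154 and 220.2, 192, 184, 208 and 201 CPM in FaDu, 2.79-fold higher, ITGB4 806 ± 119 against 308 ± 33.1 CPM, and the laminin chain LAMB3 361 ± 64.9 against 105 ± 12.5 CPM. Desmosomes, which tie cells to each other, held genes on the FaDu side: DSP (desmoplakin) had 266 ± 29.8 against 692 ± 27.1 CPM and DSC3 42.6 ± 13.6 against 140.1 ± 12.1 CPM. Of 14 tested tight-junction genes 2 were higher and 1 lower past 2-fold (21.4%, against 26.6% of all genes). CLDN1 was 12.7-fold higher in SCC154 (46.7, 113, 40.2 and 53.5 CPM by library against 3.27, 6.902, 4.09, 3.302 and 6.599 CPM), and PARD6B was higher as well (156 ± 44.7 against 37.6 ± 5.88 CPM). MARVELD2 was lower (38.5 ± 6.2 against 90.8 ± 16.2 CPM), a call that did not hold under most alternatives.

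Mucins and related surface glycoproteins were higher in SCC154 where they passed the 2-fold test. Of 25 listed genes 11 were tested, 7 of them higher and 0 lower past 2-fold. CD24 had 42.2, 45.3, 40.2 and 51.7 CPM in SCC154 and 0 counts in FaDu, at least 163-fold higher. CEACAM5 had 29.9, 131, 22.96 and 28.6 CPM against 0, at least 193-fold higher, with replicate 3 above the other SCC154 libraries; its fitted log2 difference, which is no bound, was 9.78 with that library and 8.88 without it. PSCA had 311 ± 59.9 against 1.77 ± 1.05 CPM, and the giant mucin MUC16, known as CA125, 79.5 ± 33.99 against 2.69 ± 2.39 CPM. MELTF, a membrane-bound transferrin relative outside the list, reached 2047, 1754, 1858 and 1499 CPM in SCC154 against 13.6, 17.03, 16.8, 20.2 and 16.3 CPM in FaDu, 106-fold higher.

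Interferon-stimulated genes were found on both sides. Type I interferon acts through STAT2 and IRF9, among others, which bind interferon-response elements. Of 35 tested genes 9 were higher and 6 lower past 2-fold, with a median of 0.24. BST2 (tetherin), which holds budding virus at the cell surface, had 262, 234, 285 and 289 CPM in SCC154 and 35.4, 26.2, 13.2, 13.2 and 11.4 CPM in FaDu, 13.7-fold higher (log2 difference 3.78, SE 0.26, adjusted p = 1.14e-11 by edgeR). EPSTI1 had 29.7 ± 5.38 against 2.05 ± 0.452 CPM, the DNA sensor IFI16 548 ± 89.98 against 157 ± 24.9 CPM and IRF1 148 ± 13.8 against 34.5 ± 4.97 CPM. Of the signalling genes, IRF9 was 3.14-fold higher (58.6 ± 10.1 against 18.7 ± 4.48 CPM) and STAT2 3.75-fold higher (108 ± 13.3 against 28.7 ± 6.997 CPM).

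Others of the same class were lower in SCC154. IFI27, a mitochondrial protein strongly induced by interferon, had 2.87, 1.79, 2.05 and 0.908 CPM in SCC154 and 338, 275, 142, 127 and 107 CPM in FaDu, 98.7-fold lower (log2 difference -6.63, SE 0.55, adjusted p = 2.48e-10 by edgeR). The FaDu libraries varied among themselves for this gene, and all lay above SCC154. ISG15, a ubiquitin-like modifier, had 38.8 ± 11.7 against 217 ± 78.4 CPM, OASL 0.888 ± 0.262 against 10.9 ± 2.95 CPM and IFIT1, which binds foreign RNA caps, 11.4 ± 1.53 against 39.9 ± 7.74 CPM.

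The sequences before these genes are shown because genes on both sides of the difference carry the same element. They are again the 250 bases upstream of the RefSeq gene start on GRCh38.p14, and capitals mark GAAANNGAAA, the core of the interferon-response element, on either strand.
IFI27 (chr14:94110486-94110735, plus strand): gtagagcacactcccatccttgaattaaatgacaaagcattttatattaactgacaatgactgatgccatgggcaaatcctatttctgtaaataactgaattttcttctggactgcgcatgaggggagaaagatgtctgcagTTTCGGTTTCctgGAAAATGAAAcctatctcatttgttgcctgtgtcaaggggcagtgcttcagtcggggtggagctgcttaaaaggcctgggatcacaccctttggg
ISG15 (chr1:1013247-1013496, plus strand): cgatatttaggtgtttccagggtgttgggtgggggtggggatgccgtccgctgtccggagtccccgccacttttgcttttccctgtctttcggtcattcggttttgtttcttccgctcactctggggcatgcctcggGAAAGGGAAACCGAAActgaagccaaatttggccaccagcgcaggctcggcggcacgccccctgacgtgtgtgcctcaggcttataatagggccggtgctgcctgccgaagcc
IFIT1 (chr10:89392373-89392622, plus strand): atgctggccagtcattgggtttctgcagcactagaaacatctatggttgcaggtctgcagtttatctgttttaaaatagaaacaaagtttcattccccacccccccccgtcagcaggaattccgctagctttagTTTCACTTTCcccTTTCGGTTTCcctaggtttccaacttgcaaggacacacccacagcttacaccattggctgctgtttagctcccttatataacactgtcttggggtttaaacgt
BST2 (chr19:17405631-17405880, minus strand): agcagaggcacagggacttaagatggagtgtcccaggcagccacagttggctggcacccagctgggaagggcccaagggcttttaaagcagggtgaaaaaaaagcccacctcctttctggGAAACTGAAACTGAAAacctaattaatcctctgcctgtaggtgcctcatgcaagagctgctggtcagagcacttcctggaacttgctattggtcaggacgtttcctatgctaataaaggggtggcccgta
EPSTI1 (chr13:42992242-42992491, minus strand): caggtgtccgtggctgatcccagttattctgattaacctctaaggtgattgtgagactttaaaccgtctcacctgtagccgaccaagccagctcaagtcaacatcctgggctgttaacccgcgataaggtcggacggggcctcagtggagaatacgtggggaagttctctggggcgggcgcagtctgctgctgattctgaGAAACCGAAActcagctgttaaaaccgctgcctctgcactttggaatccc
IFI27 has 2 windows, of which only the first is printed. Of all 35116 windows, 3.02% hold this motif, again a share of single windows, whereas a member counts if any of its windows holds it. Among tested list members with a window, 19 of 27 hold it: 2 of the 6 higher past 2-fold (EPSTI1 and BST2) and 5 of the 5 lower past 2-fold (ISG15, IFI44, IFIT1, IFI27 and ISG20). IFI27, ISG15 and IFIT1, all lower in SCC154, and BST2 and EPSTI1, both higher, thus shared the element but not the direction. A missing match says only that these letters are absent from this window.

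Several genes of antigen presentation were lower in SCC154. Class I MHC molecules (such as HLA-B and HLA-C) show peptides to T cells, TAP1 carries the peptides, and NLRC5 activates these genes. Of 18 tested genes 6 were lower and 1 higher past 2-fold, with a median of -0.50. HLA-C had 6.55, 7.16, 11.9 and 7.26 CPM in SCC154 and 352, 412, 435, 454 and 343 CPM in FaDu, 47.8-fold lower (log2 difference -5.58, SE 0.19, adjusted p = 2.57e-17 by edgeR). HLA-B had 154 ± 28.4 against 432 ± 36.7 CPM. NLRC5 had 4.91, 5.37, 8.61 and 6.35 CPM in SCC154 and 89.4, 84.2, 74.5, 70.6 and 72.2 CPM in FaDu, 12.1-fold lower, and TAP1 17.9 ± 3.53 against 53.5 ± 4.96 CPM. B2M, the shared light chain, was at 902 ± 131 against 1070.04 ± 60.98 CPM and not past 2-fold. HLA genes are highly polymorphic and alike, so tags of one allele can be missed or counted at another gene; their levels are uncertain.

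Several cytokine genes were higher in SCC154. Of 24 tested members of the list of NF-kB, cytokine and chemokine genes 11 were higher and 2 lower past 2-fold, with a median of 1.00. IL1B, a central inflammatory cytokine, had 232 ± 36.7 against 63.8 ± 7.69 CPM, and CCL28, a mucosal chemokine, 29.6 ± 8.76 against 0.374 ± 0.215 CPM. The neutrophil chemokines CXCL1, CXCL2 and CXCL3 are close copies on chromosome 4, and they disagreed. CXCL1 had 124, 56.6, 48.1, 70.2 and 79.6 CPM in FaDu and 0 counts in SCC154, while CXCL2 had 28.3 ± 6.01 CPM in SCC154 and 2.55 ± 1.55 CPM in FaDu, and CXCL3 37.9 ± 7.94 CPM against 0.284 ± 0.263 CPM. Reads of close copies can be assigned to either, so the single levels of these 3 are uncertain. IL18 was lower in SCC154 (10.4 ± 4.49 against 72.9 ± 12.8 CPM).

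In the cytosolic sensing list 3 of 12 tested genes were higher and 2 lower past 2-fold. The DNA sensor CGAS was lower (26.3 ± 4.13 against 72.4 ± 4.75 CPM), as was its adaptor STING1 (0.149 ± 0.298 against 5.22 ± 1.64 CPM), and the inflammasome sensor NLRP1 was higher (15.5 ± 1.71 against 0.903 ± 0.423 CPM).

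Growth factor genes differed member by member. EREG, a ligand of EGFR, had 0.819, 0.597, 0 and 0.454 CPM in SCC154 and 322, 256, 249, 260.4 and 242 CPM in FaDu, 515-fold lower, while its receptor EGFR was at 606 ± 58.5 against 398 ± 23.03 CPM and not past 2-fold. In the EGFR family list 0 of 14 tested genes were higher and 3 lower past 2-fold (21.4%, against 26.6% of all genes). IGFBP3, which binds insulin-like growth factors, had 881, 1308, 676 and 828 CPM in SCC154 and 19.1, 17.9, 5.903, 10.7 and 12.8 CPM in FaDu, 70.1-fold higher (log2 difference 6.13, SE 0.24, adjusted p = 4.69e-16 by edgeR). IGFBP7 (44.005 ± 11.9 against 5.33 ± 1.38 CPM) and IGFBP4 (60.8 ± 13.99 against 10.3 ± 0.8903 CPM) were higher as well. FGFR3 was lower (3.11 ± 0.39002 against 46.98 ± 11.4 CPM), and so was IGF2BP3, a fetal RNA-binding protein (15.3 ± 1.94 against 119 ± 17.02 CPM).

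Notch and WNT genes were on both sides. Of 20 Notch genes 6 were higher and 3 lower past 2-fold. The ligand DLL3 had 133 ± 5.53 against 17.5 ± 2.61 CPM, the ubiquitin ligase DTX4 27.3 ± 6.98 against 3.301 ± 1.76 CPM and the target HES4 49.7 ± 12.1 against 9.03 ± 3.63 CPM, all higher, while the glycosyltransferase MFNG (3.66 ± 0.332 against 59.8 ± 8.45 CPM) and the feedback gene NRARP (21.6 ± 4.22 against 107 ± 10.5 CPM) were lower. Of 28 WNT genes 4 were higher and 8 lower past 2-fold. The ligand WNT10A had 39.9 ± 2.94 against 0.5796 ± 0.4296 CPM, WNT7A 47.3 ± 3.52 against 9.12 ± 1.13 CPM, and the receptor FZD10 36.1 ± 9.34 CPM in FaDu and 0 counts in SCC154. Of 32 axon guidance genes 11 were higher and 8 lower past 2-fold. NTN4, a netrin of basement membranes, had 86.9 ± 19.3 against 1.68 ± 1.31 CPM, and SEMA4B 26.8 ± 15.7 against 276 ± 24.6 CPM.

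Known targets of hypoxia-inducible factors (HIF) were compared in cells that had been kept under normoxic conditions after the sort. The contrast is between the lines and does not test a response to hypoxia. Of 28 tested genes 4 were higher and 5 lower past 2-fold (32.1% in all, against 26.6% over all genes), with a median of -0.18. SLC2A1, the glucose transporter GLUT1, had 37.7, 31.03, 39.4 and 25.9 CPM in SCC154 and 132, 225, 221, 217 and 176 CPM in FaDu, 5.77-fold lower (log2 difference -2.53, SE 0.19, adjusted p = 6.32e-11 by edgeR). CA9, the carbonic anhydrase often used as a marker of hypoxia, was low in both lines, at 0, 1.19, 1.23 and 0 CPM in SCC154 and 2.18, 11.5, 11.8, 8.25 and 10.6 CPM in FaDu, and lower in SCC154. AK4, an adenylate kinase, was lower too (32.002 ± 6.03 against 193 ± 6.65 CPM). ADM (adrenomedullin) was instead 5.88-fold higher (365, 220.2, 407 and 239.6 CPM against 37.1, 59.4, 45.9, 66.4 and 52.4 CPM), as was the mitophagy gene BNIP3L (201 ± 25.1 against 64.7 ± 21.5 CPM). In the non-hypoxic populations the log2 difference between the lines was -2.75 for SLC2A1, -2.91 for AK4 and 1.94 for ADM.

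Other standard targets did not pass the 2-fold test. VEGFA had 67.9 ± 11.9 against 109 ± 23.4 CPM (adjusted p = 0.0156 by edgeR, 0.053 without SCC154 replicate 4), BNIP3 87.7 ± 22.7 against 41.7 ± 6.75 CPM, PDK1 13.3 ± 1.89 against 16.9 ± 4.55 CPM (adjusted p = 0.178) and LDHA 356 ± 84.5 against 384 ± 33.5 CPM (adjusted p = 0.52). NDRG1 varied most: its SCC154 libraries held 4.096, 71.6, 4.51 and 9.08 CPM and its FaDu libraries 21.8, 81.4, 59.5, 44.6 and 104 CPM, which overlap; its adjusted p was 0.0116 by edgeR, 0.0535 without SCC154 replicate 2 and 0.0504 without replicate 4. The log2 difference of NDRG1 was -1.62 with all libraries and -3.41 without SCC154 replicate 3, the library at 71.6 CPM. Of the factors themselves, EPAS1 (HIF-2 alpha) was higher (92.8 ± 21.4 against 26.6 ± 1.84 CPM) and HIF1A did not differ by test (121 ± 12.2 against 115 ± 14.7 CPM, adjusted p = 0.566 by edgeR). ELOB and ELOC, subunits of the ligase that removes HIF, were lower (80.2 ± 9.21 against 273 ± 14.3 CPM and 60.6 ± 10.6 against 155 ± 19.1 CPM); the call of ELOC did not hold under every alternative.

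Lipid synthesis genes were more often lower in SCC154. Of 28 tested genes of cholesterol and fatty acid synthesis 6 were lower and 0 higher past 2-fold (21.4%, against 26.6% of all genes past 2-fold and 11.3% lower). By the test against 0, 19 were lower and 3 higher, with a median of -0.68. FASN, the fatty acid synthase, had 64.7, 55.5, 80.8 and 78.5 CPM in SCC154 and 325, 334, 344, 345 and 330.4 CPM in FaDu, 4.78-fold lower (log2 difference -2.26, SE 0.13, adjusted p = 6.3e-13 by edgeR). ACACA, which makes its substrate malonyl-CoA, had 35.3 ± 2.86 against 162 ± 5.604 CPM, and the regulator SREBF1 41.05 ± 3.74 against 107 ± 8.64 CPM.

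Amino acid transport went the other way, with 10 of 25 tested genes higher and 0 lower past 2-fold and a median of 0.82. SLC7A11, the cystine importer, had 289 ± 66.2 against 65.95 ± 21.3 CPM, the glutamate transporter SLC1A3 80.8 ± 26.1 against 6.55 ± 0.648 CPM, and SLC38A5 14.5 ± 1.66 CPM against 0 counts in FaDu. DDIT3 (CHOP), a stress factor in this list and in that of the unfolded protein response, had 171 ± 27.3 against 19.5 ± 0.887 CPM, 8.75-fold higher. Of 21 tested genes of the unfolded protein response 4 were higher and 0 lower past 2-fold, with a median of 0.36. That is 19%, against 26.6% of all genes past 2-fold and 15.3% of all genes higher.

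Targets of the antioxidant factor NRF2 were divided, with 5 of 30 tested higher and 7 lower past 2-fold. GCLM, a subunit of the enzyme that starts glutathione synthesis, had 53.1 ± 10.8 against 285 ± 23.6 CPM, 5.32-fold lower, and NQO1 56.9 ± 11.2 against 221 ± 37.1 CPM. GSTM3, a glutathione transferase, had 56.7 ± 6.89 CPM against 1 count in FaDu, a ratio of 627-fold (95% counting interval 112 to 24832), and AKR1C2 65.1 ± 18.8 against 2.05 ± 0.723 CPM. The last has close copies and is uncertain. Of 19 tested retinoid and detoxification genes 8 were higher and 0 lower past 2-fold, and 14 were higher and 2 lower by the test against 0. DHRS9, a retinol dehydrogenase, had 94.6, 97.3, 99.2 and 71.7 CPM against 1 count, a ratio of 989-fold (95% counting interval 177 to 39092), and CYP2S1 199.6 ± 32.3 against 10.2 ± 3.12 CPM.

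DNA repair genes passed the 2-fold test less often than all genes (14.3% against 26.6%). Of 42 tested genes of double-strand break repair 6 were lower, near the 11.3% lower over all genes, and 0 were higher. BLM, the helicase mutated in Bloom syndrome, had 32.4, 32.2, 27.1 and 39.9 CPM in SCC154 and 254, 231, 218, 213 and 226 CPM in FaDu, 6.94-fold lower (log2 difference -2.80, SE 0.13, adjusted p = 5.19e-15 by edgeR), and XRCC6 (Ku70) 119.7 ± 7.28 against 354 ± 29.1 CPM. RAD52 was low, at 3.37 ± 2.35 against 14.3 ± 4.14 CPM. By the test against 0, 19 were lower and 14 higher, with a median of -0.25.

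HOX genes, which encode the factors that set position along the body axis, were on both sides. Of 25 tested 5 were higher and 10 lower past 2-fold. HOXB4 had 2.05, 6.56, 3.69 and 4.99 CPM in SCC154 and 125, 97.1, 81.3, 84.6 and 104 CPM in FaDu, 23.4-fold lower, HOXB7 2.31 ± 0.805 against 44.2 ± 3.05 CPM, and HOXB2 18.3 ± 6.46 CPM in FaDu against 0 counts. The 5 tested HOXB genes (HOXB2, HOXB3, HOXB4, HOXB5 and HOXB7) were all lower past 2-fold. The 10 lower genes also included members of other HOX clusters. HOXD10 had 23.2 ± 6.51 against 0.539 ± 0.5795 CPM and HOXD11 21.1 ± 6.31 against 1.89 ± 0.938 CPM, both higher. Of 14 tested imprinted genes 6 were lower and 1 higher. PEG10, a gene derived from a retrotransposon and needed in placenta, had 136, 107, 95.4, 90.8 and 74.8 CPM in FaDu and 0 counts in SCC154, at least 294-fold lower, and its neighbour SGCE 14.2 ± 4.27 CPM against 0.

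**Figure D4:**
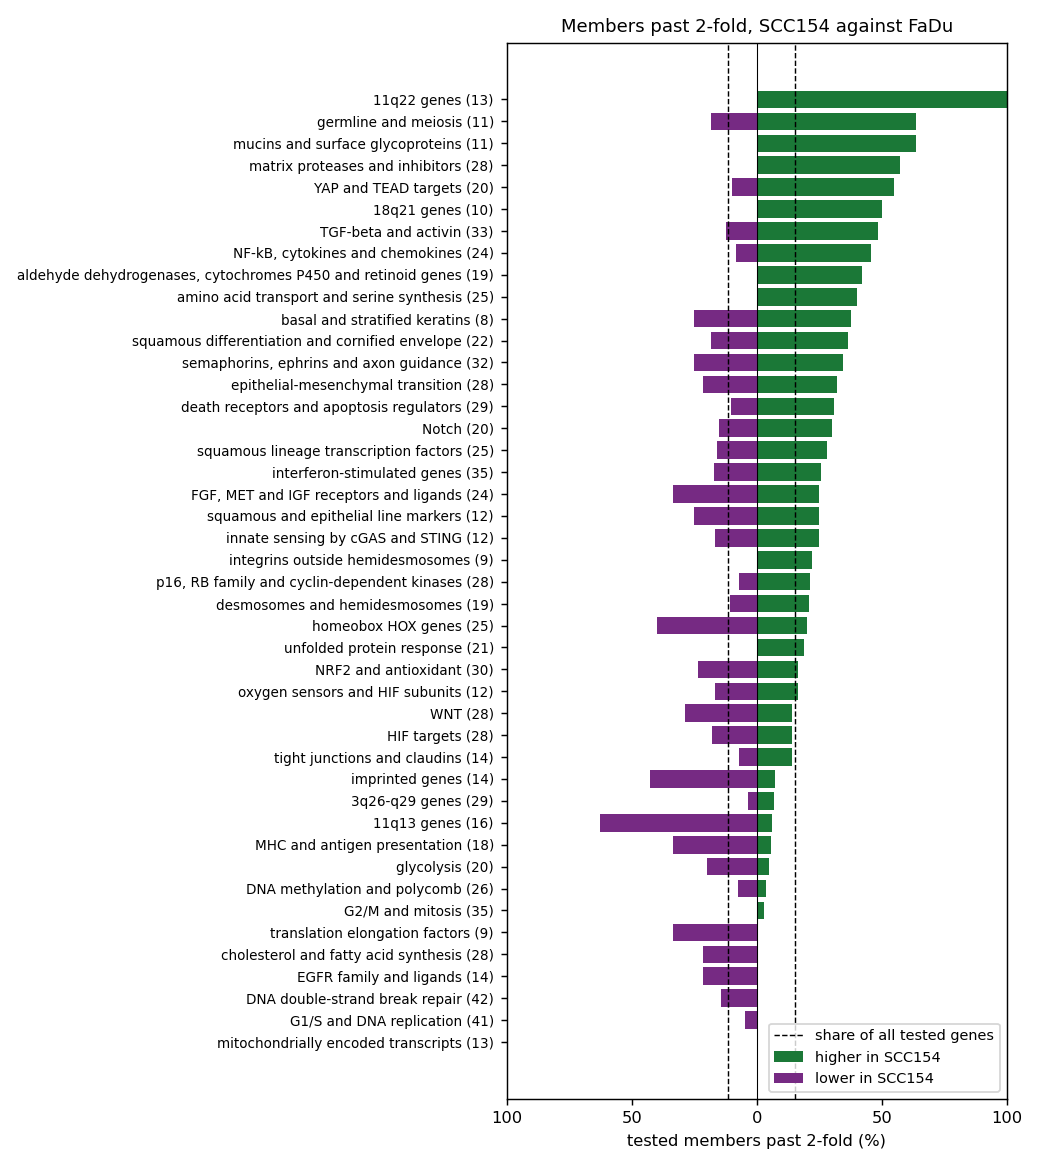
Share of tested members past 2-fold in 44 lists with at least 8 tested members (number in brackets), higher in SCC154 to the right (green) and lower to the left (purple), in percent. Dashed lines mark the shares over all tested genes, 15.3% higher and 11.3% lower; the 11q22 list stands at 100% higher and the 11q13 list has the largest share lower.

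The last comparison asked whether the difference between the lines was the same in cells without a hypoxic past. The non-hypoxic libraries are other libraries of the same lines, sorted for DsRed. Of the 8569 genes called in the post-hypoxic comparison 86.3% were also called in the non-hypoxic one, and of the 8472 called there 87.3% were called here. Of the 7396 genes called in both, 7393 had the same direction. A further 1173 genes (9.54%) were called after hypoxia and not without it, which is no test of a difference between the 2 comparisons. Across genes, which are not independent replicates, the 2 sets of log2 differences correlated at 0.970, with a median absolute difference of 0.23. A test of the difference of differences called 2 of 12291 genes (0.0163%) by edgeR, CALD1 and NFIB, and 1202 (9.78%) at an unadjusted p of 0.05. The next lowest adjusted p was 0.0667. This count rested on how replicate numbers were treated. Within a line, 7 of 8 pairs of a post-hypoxic and a non-hypoxic library with the same number deviated together, at a correlation over 0.1. A minority of pairs with different numbers did so too. Post-hypoxic FaDu 3 correlated at 0.40 with non-hypoxic number 4 and at 0.35 with its own number. Post-hypoxic SCC154 2 correlated at 0.32 with non-hypoxic number 4 and at 0.09 with its own number. With the numbers of each line as a block of their own, an alternative chosen after seeing the data, 224 genes (1.82%) were called by edgeR, 97 with a more positive and 127 with a more negative difference after hypoxia, and 2121 at an unadjusted p of 0.05. CALD1 and NFIB were among them. So were the cystine importer SLC7A11 (a difference of -1.19 on the log2 scale, SE 0.163, adjusted p = 0.00049 by edgeR) and VEGFA (-0.90, SE 0.147, adjusted p = 0.00317 by edgeR). IGF2BP3 (-1.16, adjusted p = 0.0016 by edgeR) and FST (-0.92, adjusted p = 0.0019 by edgeR), described above, were called as well. BNIP3, like VEGFA a HIF target, was among the 97 with a more positive difference (0.67, SE 0.178, adjusted p = 0.0491 by edgeR). These examples were chosen after their values were seen.

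CALD1 encodes caldesmon, which binds actin and tropomyosin. Post-hypoxic SCC154 libraries held 12.3, 9.55, 11.1 and 15.9 CPM and post-hypoxic FaDu libraries 185, 208, 209, 203 and 202 CPM. Non-hypoxic SCC154 libraries held 58.2, 44.5, 44.3, 49.4 and 46.4 CPM and non-hypoxic FaDu libraries 206, 204, 176 and 189.8 CPM. FaDu libraries of both kinds covered one range, and post-hypoxic SCC154 lay below non-hypoxic SCC154 without overlap. The log2 difference between the lines was -4.03 (SE 0.14) after hypoxia and -1.99 (SE 0.11) without it, and the difference between these was -2.03 (SE 0.18, adjusted p = 5.48e-07 by edgeR).

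NFIB is a transcription factor of the same family as NFIA. It had 20.1, 26.8, 25.01 and 37.2 CPM in post-hypoxic SCC154 and 52.9, 63.96, 49.9, 56.95 and 69.95 CPM in post-hypoxic FaDu, against 59.7, 57.5, 51.2, 60.7 and 70.9 and 53.7, 45.7, 46.9 and 50.7 CPM in the non-hypoxic libraries. The lines did not overlap after hypoxia, and did without it; the post-hypoxic difference passed the test against 0 and not the 2-fold test. The log2 difference between the lines was -1.11 (SE 0.16) after hypoxia and 0.29 (SE 0.15) without it, a difference of -1.40 (SE 0.22, adjusted p = 0.00811 by edgeR). KRT81, at 41.02 ± 8.11 CPM in non-hypoxic and 6.75 ± 1.07 CPM in post-hypoxic SCC154, did not pass this test (adjusted p = 0.321 by edgeR, 0.0764 with the block within each line). IRF9, at 16.5 ± 4.89 and 58.6 ± 10.1 CPM, did not pass it either (adjusted p = 0.196 by edgeR), but did with that block (a difference of 1.42 on the log2 scale, SE 0.246, adjusted p = 0.00581).

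**Figure D5:**
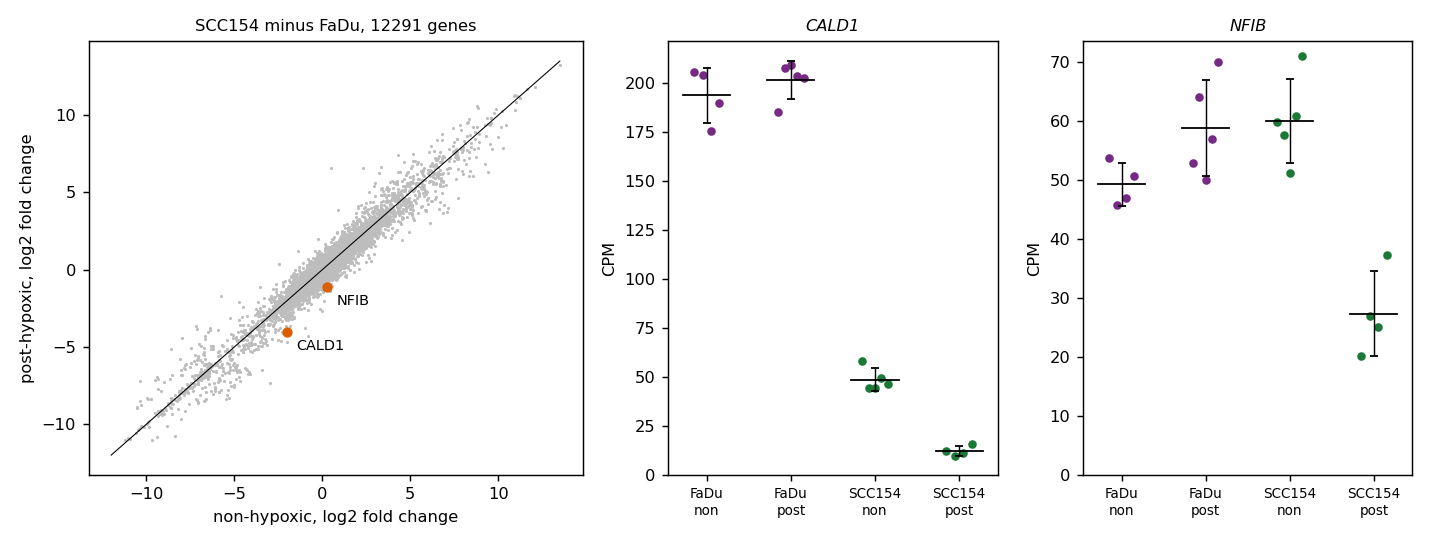
Left, log2 difference SCC154 minus FaDu of each of the 12291 tested genes in non-hypoxic (x axis) and post-hypoxic (y axis) cells, with the line of equality and the 2 genes called for a difference without a block marked. Middle and right, CPM of CALD1 and NFIB in each library of the 4 groups, with the mean and SD; both are lowest in post-hypoxic SCC154.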

How the data were processed

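RNA of 18 libraries (5 and 4 of post-hypoxic and 4 and 5 of non-hypoxic FaDu and SCC154) was sequenced from the 3′ end. Per the submitters' processing notes, the tools included HISAT2 2.2.1, featureCounts 1.5.1, UMI-tools 1.1.5, Trimmomatic 0.39, FastQC 0.11.9 and DESeq2, and the genome build was hg38. Their order and settings, the annotation, and the handling of strand and of reads with several matches were not given in the sources used here. Deposited were raw counts per gene symbol, whole numbers made by the authors and not normalized, for 41120 symbols, 22591 of them with a count in any library.

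Counts were analysed with edgeR 4.0.16 in R 4.3.3: TMM factors, filterByExpr (12291 genes kept), and a quasi-likelihood fit of 4 groups over all 18 libraries without covariates (14 residual degrees of freedom, common biological coefficient of variation 0.148). All p-values were adjusted over the 12291 genes by the Benjamini-Hochberg method at 0.05, and glmTreat tested against a fold of 2. The analysis code was tested on simulated data. Library measures were compared with exact permutation tests. A library's count floor and the counting intervals (exact, 95%) cover counting error only, and 1 CPM stood for 1.68 to 2.44 counts in these libraries.

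Alternatives were other normalizations (DESeq2 size factors, upper quartile, totals only), other filters (none, or at least 1 CPM in 4 libraries), a replicate block over both lines or, chosen after seeing the data, within each line, the post-hypoxic libraries alone, DESeq2 1.42.0, limma 3.58.1 with voom, and leaving out each library. Same-numbered libraries of the lines did not all deviate together (correlations -0.04, -0.29, 0.40 and 0.11 for numbers 2 to 5). Numbers 4 and 5 lay over 0.1, and numbers 2 and 3 did not. The numbers were therefore not treated as pairs across lines in the main fit, and a replicate block over both lines was run as an alternative. Within a line, post-hypoxic and non-hypoxic libraries of one number correlated at 0.61, 0.24, 0.35 and 0.61 in FaDu (numbers 1 to 4) and at 0.09, 0.47, 0.52 and 0.21 in SCC154 (numbers 2 to 5); the block within each line bears on the difference of differences alone.

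Members, gene lists and tests were chosen with earlier results of these data known. A total of 164 tested genes were named by rule: the 12 with the largest difference in each direction among genes past 2-fold without overlap and at 50 CPM or more in a line, the 2 largest in each direction per list at 10 CPM or more, 29 tested genes of a list of 31, and genes called for a difference of differences. The 81 others checked in the same way are mostly list members chosen after their values were seen. Y-linked genes were tested but not named, and some results are not reported here. Gene positions are from GENCODE 29 (12209 of 12291 matched) and upstream sequences from RefSeq on GRCh38.p14. Among genes described, AFAP1-AS1, MCTP1, SNRPN, CCND1, CDKN2B, TYMS, ELOB, KRT80, PPFIA1, SOX2, HLA-C, IGF2BP3, IGFBP7, DDIT3, SGCE, HOXB4, HOXD11, MDM2 and HIF1A end within another tested gene, so that tags may be shared.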

Additional observations from a re-analysis of the deposited data

Results flagged for a closer look

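In 30 of 388 groups of 4 or 5 libraries checked, 1 library stood apart from the others by Dixon's criterion, which chance meets in about 1 of 20 groups. No cause was tested. In SCC154, replicate 3 held the highest level of CEACAM5 (131 CPM, the others 23 to 29.9), NDRG1 (71.6, the others 4.1 to 9.08), SEMA4B (50.1, the others 15.9 to 21.7) and KRT13 (111, the others 53.3 to 54.5). It was also highest for MARVELD2 (47.7 CPM), ITGA3 (338) and KRT81 (8.35), and lowest for MDM2 (115, the others 147 to 152) and CBX8 (14.3). Replicate 4 was highest for E2F2 (23.4 CPM), HLA-C (11.9) and LDHA (482, the others 304 to 326) and lowest for RHOBTB3 (884, the others 993 to 994). Replicate 2 was highest for EPSTI1 (37.7 CPM), and replicate 5 lowest for DHRS9 (71.7, the others 94.6 to 99.2).

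In FaDu, replicate 1 was highest for ISG15 (354 CPM, the others 163 to 205), EREG (322) and CCNE2 (28.9, the others 12.8 to 15.2), and lowest for BBC3 (13.6, the others 28.1 to 33.9), CDC25B (137), ELOB (247), EGFR (359) and CALD1 (185). Replicate 5 was highest for HES4 (15.4 CPM) and RHOBTB3 (9.24, the others 3.63 to 4.36) and lowest for FADD (256) and B2M (963). Replicate 4 was highest for ANO1 (25.2 CPM). Replicate 2 was highest for TDRD5 (13.8 CPM) and replicate 3 for NEO1 (71.3).

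For 2 genes the difference between the lines itself differed between post-hypoxic and non-hypoxic cells by edgeR's test of the difference of differences: CALD1 (-2.03 on the log2 scale) and NFIB (-1.40).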

How the results depend on the processing

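Under the 20 alternatives run, where they gave a value, the count of genes called was 7810 to 10106 (8569 in the main analysis) and the count past 2-fold 2608 to 4243 (3274), within 1.5 times of the reported counts. The count of genes whose line difference differed between post-hypoxic and non-hypoxic cells moved more: 224 with a replicate block within each line (chosen after seeing the data), 51 without a filter on low counts, 21 by DESeq2 and 5 with the replicate block over all 18 libraries, against 2 or 3 under the others in which it could be computed; the cause was not tested. CALD1 and NFIB were called under each of these. With the replicate block over all 18 libraries 8898 genes were called, and over the 8 post-hypoxic libraries of numbers 2 to 5 it was 7810. Across the lines the labels link the libraries only by number. Of the 164 genes named by rule, 160 kept direction and call against 0 in every alternative, as did 80 of the 81 others; exceptions were VEGFA, NDRG1, KRT18, SYCP2 and B2M, which lost the call in at least 1. Of the 227 of these genes past 2-fold, 217 were past 2-fold in every alternative. The other 10 (MARVELD2, TNFSF10, ORC1, KRT13, FST, ELOC, ITGA3, CCNE2, CDC25B and TGFBR1) were not past it by DESeq2, and the first 7 not under other alternatives as well. The share of counts from the top 10 genes differed by -0.185 percentage points between the lines, from -0.430 to 0.00831 when 1 library was left out (reversed without SCC154 replicate 4), and that of the top 50 genes by -0.692 (p = 0.0476 by exact permutation test, adjusted p = 0.333 over 7 measures). The difference in the mitochondrial share was 0.159 to 0.275 points when 1 library was left out. For the genes at 0 counts in a line, limma voom gave other fitted differences, which are no bounds, and library depth limits their folds to the lower bounds given.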

Other observations

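Large differences also lay outside the lists, in genes chosen after their values were seen. UCHL1, a ubiquitin hydrolase abundant in neurons, had 313, 252, 387 and 291 CPM in SCC154 and 3.27, 2.76, 0.454, 2.48 and 0.4399 CPM in FaDu, 164-fold higher. RHOBTB3, a protein of the Golgi, had 967 ± 54.8 against 5.02 ± 2.38 CPM, 189.6-fold higher. The lines did not overlap for either gene.

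A run of 8 neighbouring tested genes on chromosome 5, from OSMR-DT to PRKAA1 (38710367 to 40798374), was higher past 2-fold in SCC154, with a median log2 difference of 2.23. It holds OSMR, the receptor of oncostatin M (85.5 ± 9.64 against 8.64 ± 3.96 CPM), RICTOR, a core subunit of mTOR complex 2 (149 ± 39.8 against 45.8 ± 7.54 CPM), and DAB2, an endocytic adaptor (15.7 ± 3.02 against 1.62 ± 1.19 CPM). A run of 8 on chromosome 15 (89886485 to 90245811) was lower, with a median of -2.48, and holds IDH2, the mitochondrial isocitrate dehydrogenase (21.8 ± 2.29 against 88.9 ± 12.8 CPM), and SEMA4B. Copy number was not measured in these files.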
